A study of Rattus norvegicus with 6 samples.

Results

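The 9 genes described here encode parts of type I interferon and related JAK-STAT signalling, from the ligand to the feedback inhibitors: interferon beta (Ifnb1), both chains of its receptor (Ifnar1 and Ifnar2), receptor-associated kinases (Jak1, Jak2 and Tyk2), the transcription factor Stat2 and the suppressors of cytokine signalling Socs1 and Socs3. They were chosen by name, as members of this pathway, from the 23139 genes listed in the count tables, and all 9 are listed. Of these, 8 passed the filter on low counts, and Ifnb1 did not. The RNA came from primary microglia of the cortex of newborn Wistar rats, which were shaken off mixed glial cultures and purified on CD11b/c magnetic beads. In the LPS group, 3 biological replicates had received 100 ng/mL lipopolysaccharide (LPS, a bacterial outer membrane component sensed by Toll-like receptor 4) with the solvent DMSO, and in the LPS/siponimod group 3 biological replicates had received 100 ng/mL LPS with 50 µM siponimod, a modulator of sphingosine-1-phosphate receptors. All 6 libraries therefore carry LPS, and neither unstimulated cells nor cells given siponimod alone were analysed here. The study stimulated cultures for different lengths of time, and which of these preceded sequencing is not stated. Library totals lay between 38080379 and 46643859 counts.

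Type I interferons are secreted proteins that bind a receptor of an IFNAR1 and an IFNAR2 chain. The kinases TYK2 and JAK1, which sit on these chains, phosphorylate STAT proteins, and STAT2 enters the nucleus in the complex ISGF3 together with IRF9. ISGF3 binds a DNA element called ISRE (interferon-stimulated response element), whereas STAT dimers bind a palindromic element called GAS (gamma-activated site). JAK2 serves receptors such as those of interferon gamma and of several cytokines and growth factors. SOCS1 and SOCS3 are induced by this signalling and switch it off at the kinases and receptors. Microglia, the resident macrophages of the brain, can make interferon beta after Toll-like receptor 4 signals through the adaptors TICAM1 and TICAM2 and the kinases TBK1 and IKBKE.

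A RefSeq promoter, from 250 bases before to 50 bases after the start used by the RefSeq table (build GRCr8, which is not the build to which the reads were mapped), was found for 7 of the 9 genes, and not for Jak1 and Tyk2. These windows were searched on both strands for an ISRE written as GAAANNGAAA and a GAS written as TTCNNNGAA, where N is any base. The Socs1 window is printed because it was the only one of the 7 with an ISRE, and that of Cish, another SOCS family gene chosen after its values were seen, because of its number of GAS matches. Capitals mark the matched letters. The Socs1 window (chr10:5389324-5389623, + strand) held 1 GAS match and a pair of ISRE matches that overlap by 4 bases, and the Cish window (chr8:116850719-116851018, + strand) held 4 GAS matches.
Socs1: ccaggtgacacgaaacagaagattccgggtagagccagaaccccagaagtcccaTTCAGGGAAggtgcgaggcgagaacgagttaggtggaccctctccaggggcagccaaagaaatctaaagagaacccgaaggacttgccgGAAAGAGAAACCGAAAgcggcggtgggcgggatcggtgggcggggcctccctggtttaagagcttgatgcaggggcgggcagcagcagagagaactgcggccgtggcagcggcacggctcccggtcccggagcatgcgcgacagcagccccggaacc
Cish: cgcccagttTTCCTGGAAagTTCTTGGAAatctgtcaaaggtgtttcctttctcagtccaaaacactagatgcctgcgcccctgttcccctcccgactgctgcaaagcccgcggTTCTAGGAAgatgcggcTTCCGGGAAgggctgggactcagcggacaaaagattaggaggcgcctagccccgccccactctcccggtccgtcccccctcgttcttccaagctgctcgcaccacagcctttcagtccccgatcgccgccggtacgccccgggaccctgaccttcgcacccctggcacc
Counted from the start, the ISRE matches of Socs1 were GAAAGAGAAA at -107 to -98 and GAAACCGAAA at -101 to -92, and the GAS match was TTCAGGGAA at -196 to -188. Of 33469 rat promoters of this length, 3.92% held an ISRE match and 0.266% held at least 2. A GAS match stood in 8.87% of all promoters and in 2 of the 7 windows, those of Socs1 and Ifnar2 (TTCCTGGAA at -249 to -241). Only 2 promoters in the whole table (0.00598%) held at least 4 GAS matches, and that of Cish is 1 of them. The cut-offs of 2 and 4 equal the numbers in the printed Socs1 and Cish windows, so these shares are not a test. Among 22 known ISGF3 target genes, 15 had a promoter in the table and 12 of these held an ISRE. Such matches describe the letters of the window and are not evidence of binding.

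The libraries were not alike in every respect, and LPS replicate 3 stood apart. The correlation of log CPM over genes (CPM, counts scaled to the library size with TMM factors) was 0.983 between LPS replicates 1 and 2, but 0.935 and 0.945 between these and LPS replicate 3, while the LPS/siponimod libraries correlated with each other at 0.956 to 0.973. Oligodendrocyte lineage genes were counted in this library far above the other LPS libraries. Olig1 had 515 counts in it against 1 and 5 in LPS replicates 1 and 2, and 2, 3 and 17 in LPS/siponimod replicates 1, 2 and 3. Pdgfra had 284 counts against 5 and 4 in these LPS replicates, and 1, 4 and 81 in the LPS/siponimod replicates. The neuronal gene Map2 stood at 0, 3 and 162 counts under LPS and 1, 1 and 115 under LPS/siponimod, and thus was seen in replicate 3 of both conditions. Gfap, the astrocyte filament gene, had 1, 2 and 88 counts under LPS and 0, 0 and 1 under LPS/siponimod. The summed level of the 8 oligodendrocyte lineage markers was 5.34, 5.37 and 36.0 CPM with LPS and 11.4, 10.3 and 22.6 CPM with LPS/siponimod. Mbp was the most abundant except in LPS replicate 3, where Olig1 was, and none was at 0 throughout. For the 8 neuronal markers the sums were 1.75, 1.04 and 11.6 CPM with LPS and 4.39, 5.87 and 15.4 CPM with LPS/siponimod, Tubb3 being the most abundant. For the 7 astrocyte markers they were 48.4, 24.2 and 24.9 CPM with LPS and 29.3, 28.8 and 59.5 CPM with LPS/siponimod, most of it from Slc1a3. The 6 fibroblast markers summed to 6.05, 4.75 and 3.98 CPM with LPS and 11.9, 4.64 and 8.66 CPM with LPS/siponimod. Dcn was the most abundant by its mean over the 6 libraries (3, 0 and 4 counts with LPS, 456, 49 and 178 with LPS/siponimod). With LPS almost none of the sum came from Dcn. Lum had no more than 4 counts in any library. Of 4 endothelial markers in the tables Kdr was at 0 in all libraries, and their sum of 156, 202 and 82.0 CPM with LPS and 37.4, 79.9 and 26.2 CPM with LPS/siponimod came from Cdh5 and Pecam1 above all. The 6 lymphocyte markers in the tables summed to at most 0.112 CPM, and Cd3e and Cd3g were at 0 in all libraries. Results are therefore also given without LPS replicate 3 where this moves them, and the part of these other cell types in the results was not tested.

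Microglial markers were present in every library, and they moved with the treatment. The 9 markers in the tables summed to 6618, 5460 and 3524 CPM with LPS and 2087, 3029 and 1617 CPM with LPS/siponimod. Csf1r was the most abundant except in replicate 3 of both conditions, where Itgam was. Of the 9, 3 (Aif1, Itgam and Cx3cr1) were downregulated and none upregulated, against 11.7% and 13.6% of all genes tested. Aif1 had a log2 fold change (FC) of -1.88 with an SE of 0.40, and its quasi-likelihood adjusted p was 0.0212. In bulk libraries fewer cells of a type and less RNA per cell cannot be told apart, and the part of this decline in the results was not tested.

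Differentially expressed genes (DEGs) were those with an adjusted p of at most 0.05 in edgeR's quasi-likelihood test and a fold change of at least 1.5, for LPS/siponimod against LPS. Among the 8 tested genes of the pathway, Jak2 was the only DEG, and it was downregulated. The log2 FC was below 0 for 6 of the 8 and above 0 for 2, and its median was -0.53, whereas the median over all 11977 genes tested was -0.021. Of all genes tested, 11.7% were downregulated and 13.6% upregulated, so that 1 of 8 is near the background. Same-numbered libraries of both conditions deviated together, and once the replicate number entered the fit as a block, 3 of the 8 genes were downregulated (Jak2, Stat2 and Socs1) and none upregulated, against 16.4% and 17.7% of all genes. The values of the LPS and LPS/siponimod libraries did not overlap for 3 of the 8 genes, Jak1 and Jak2 lying lower and Ifnar2 higher with LPS/siponimod. Among all genes tested, 24.0% were lower and 25.3% higher without overlap. Without LPS replicate 3, the DEGs were Jak2 and Stat2, and without replicate 3 of both conditions none of the 8 was a DEG. Over all genes, 1772 were downregulated in the former fit and 983 in the latter, against 1403 with all libraries.

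**Figure D1:**
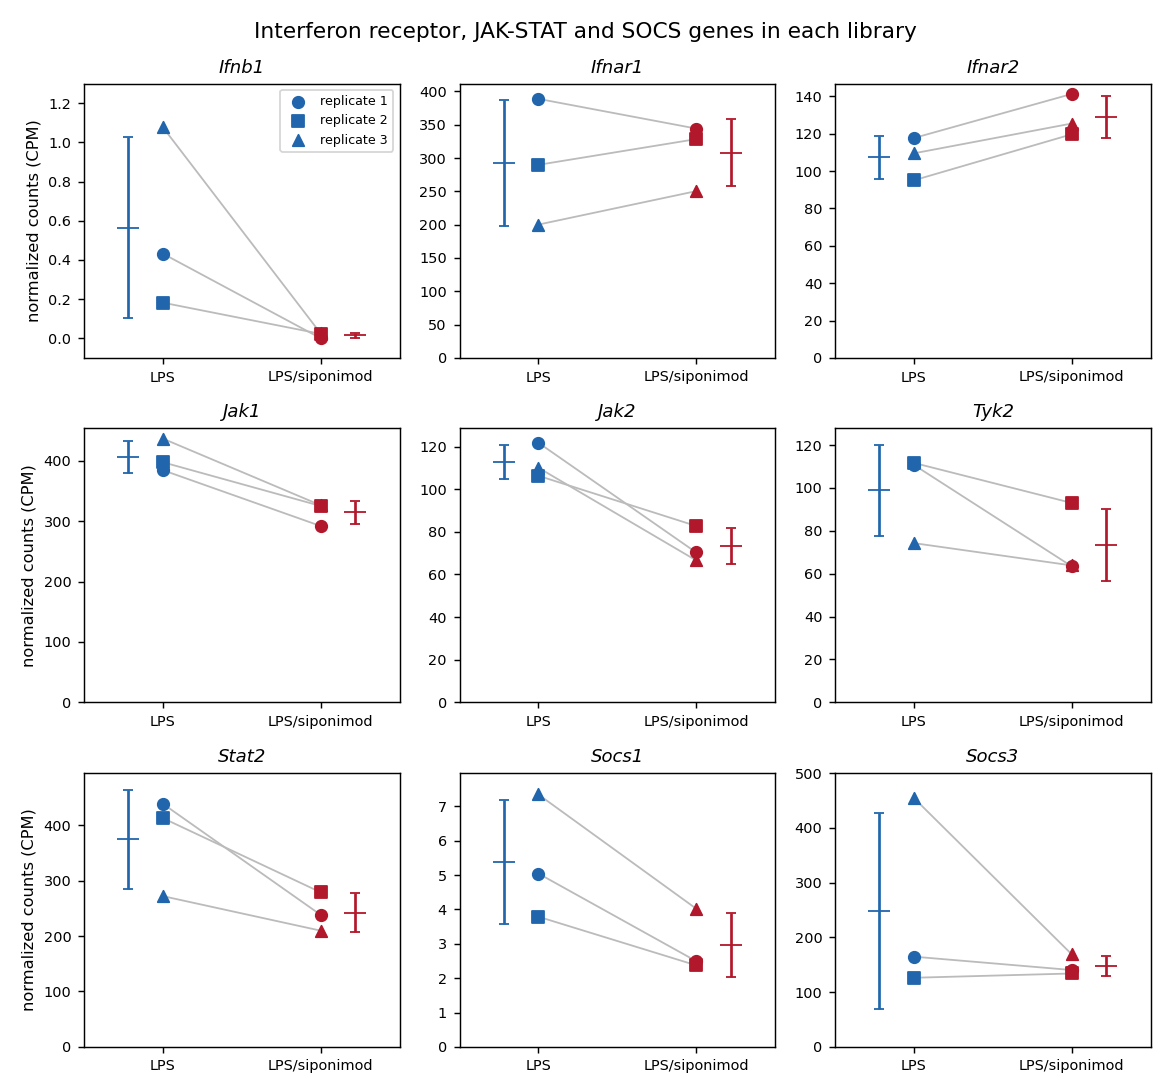
Normalized counts (CPM, linear axes from 0 except that of Ifnb1, which starts just below 0) of the 9 genes in each of the 6 libraries, with grey lines joining same-numbered replicates and crosses with bars giving the mean ± SD of 3 libraries. Jak1 and Jak2 lay lower and Ifnar2 higher with LPS/siponimod in all libraries, while the Socs3 mean with LPS was raised by replicate 3 alone.

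Ifnb1, the ligand gene, was close to the counting floor. It had 16, 7 and 40 counts in LPS replicates 1, 2 and 3 and 0, 1 and 1 counts in LPS/siponimod replicates 1, 2 and 3. Thus 63 reads in all were counted with LPS against 2 with LPS/siponimod, and the lowest LPS library still exceeded each LPS/siponimod library. On the CPM scale these were 0.432, 0.182 and 1.08 (0.563 ± 0.462, SD, n = 3) against 0, 0.0224 and 0.0244 (0.0156 ± 0.0135, SD, n = 3). The 0 counts of LPS/siponimod replicate 1 allow a level of up to 3 counts, or 0.0646 CPM, as far as counting error goes. Set against a floor of 3 counts in each LPS/siponimod library (0.0683 CPM on average), the LPS mean was 8.25-fold higher, or 4.49-fold when LPS replicate 3 was left out. These folds take no account of the spread among LPS libraries and are not strict lower bounds. The floor is the limit for 0 counts, whereas LPS/siponimod replicates 2 and 3 had 1 count each. In an exact two-sided permutation test its p was 0.1, the smallest that 3 against 3 libraries can give. Fitted without a filter on low counts, Ifnb1 was downregulated with a quasi-likelihood adjusted p of 0.0329, where 6.53% of 17057 genes were, and with 0.0108 in the fit with a replicate block. The call held in only 1 of 6 fits with a library removed, that without LPS replicate 3, which holds most of its reads (adjusted p = 0.0486). In the other 5 the adjusted p lay between 0.0616 and 0.106.

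Other interferon genes were nearly silent. Of 14 listed ligand and receptor genes of the interferon families, 11 were in the tables. Ifng, Ifna1, Ifnk, Ifnl1 and Ifnl3 had no count in any library, which allows at most 3 counts per library for each. Ifna4 had 1 count in all and Ifne at most 3 counts in a library. The 4 others, all receptor chains, had positive log2 FCs with a median of 0.77. Of these, 2 were upregulated, against 13.6% of all genes tested. Ifnlr1, the specific chain of the interferon lambda receptor, was at 1.51, 1.25 and 1.80 CPM with LPS and at 9.77, 5.15 and 7.66 CPM with LPS/siponimod. It was higher in each pair, by a log2 FC of 2.31 (SE 0.31, quasi-likelihood adjusted p = 0.00786). Ifngr1, the ligand-binding chain of the interferon gamma receptor, was at 217, 154 and 105 CPM with LPS and at 328, 388 and 250 CPM with LPS/siponimod, with a log2 FC of 1.02 (adjusted p = 0.0498). The partner chains did not pass the test, with a log2 FC of 0.070 for Ifngr2 (adjusted p = 0.744) and 0.51 for Il10rb (adjusted p = 0.0549). Without LPS replicate 3, 1 of the 4 was upregulated, Ifngr1 having a log2 FC of 0.80 (adjusted p = 0.0611).

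The type I receptor genes showed no DEG. Ifnar1, which encodes the TYK2-binding chain, was at 389, 290 and 200 CPM in the LPS libraries and at 344, 328 and 250 CPM in the LPS/siponimod libraries. The ranges overlapped, replicate 3 being the lowest in both conditions. The means were 293 ± 94.4 and 308 ± 50.3 CPM (SD, n = 3 each), and the log2 FC was 0.071 with a 95% interval from -0.58 to 0.73 (SE 0.27, quasi-likelihood adjusted p = 0.862). Its sign turned to -0.14 without LPS replicate 3. Ifnar2, the JAK1-binding chain, was at 118, 95.1 and 110 CPM with LPS and at 141, 120 and 125 CPM with LPS/siponimod, and was higher in each of the 3 pairs. This came to 107 ± 11.5 against 129 ± 11.2 CPM and a log2 FC of 0.26 with an interval from -0.065 to 0.59 (SE 0.14, quasi-likelihood adjusted p = 0.184). An exact permutation test gave p = 0.7 for Ifnar1 and p = 0.1 for Ifnar2. The log2 ratio of Ifnar1 to Ifnar2 within a library was 1.40 ± 0.46 with LPS and 1.25 ± 0.23 with LPS/siponimod (SD, n = 3 each, exact permutation p = 0.6). The upper bounds of both intervals reach a 1.5-fold rise.

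Jak1, Jak2 and Tyk2 all had negative log2 FCs, and of the 3 only Jak2, which is not one of the kinases of the type I receptor, passed the test. Jak2 was at 122, 106 and 110 CPM with LPS and at 70.3, 82.7 and 66.6 CPM with LPS/siponimod. Every LPS/siponimod library lay below every LPS library. The means were 113 ± 8.08 and 73.2 ± 8.46 CPM (SD, n = 3 each), which gave a log2 FC of -0.62 with a 95% interval from -0.94 to -0.30 (SE 0.13, quasi-likelihood adjusted p = 0.0205, or 0.0239 with the block). Jak2 remained a DEG without LPS replicate 3 and without LPS/siponimod replicate 2. It lost the call without any 1 of the other 4 libraries, with adjusted p-values from 0.0574 to 0.0975, although its log2 FC stayed between -0.73 and -0.55.

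Jak1 was at 384, 397 and 437 CPM with LPS and at 292, 325 and 326 CPM with LPS/siponimod. These groups did not overlap either, but the change was small. From 406 ± 27.2 to 314 ± 19.5 CPM, the log2 FC was -0.37 with an interval from -0.69 to -0.050 (SE 0.13, quasi-likelihood adjusted p = 0.0805). The rat Jak1 gene overlaps Raver2 in the RefSeq annotation, which had at most 61 counts in any library, and Ifnar2 and Socs1 each overlap a long non-coding RNA gene. How reads of overlapping genes were divided is not given in the sources used here. Tyk2 was at 111, 112 and 74.3 CPM with LPS and at 63.5, 93.0 and 63.9 CPM with LPS/siponimod. It was lower in each pair, while the lowest LPS library fell within the LPS/siponimod range. The log2 FC was -0.43 (98.9 ± 21.3 against 73.4 ± 16.9 CPM, SE 0.23, quasi-likelihood adjusted p = 0.202). Relative to Jak1, the log2 ratio of Jak2 was -1.85 ± 0.17 with LPS and -2.11 ± 0.17 with LPS/siponimod (SD, n = 3 each, exact permutation p = 0.2, with 0.1 the smallest possible). It was lower in each pair, with differences of -0.40, -0.071 and -0.30.

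Stat2, the STAT subunit of ISGF3, was at 439, 413 and 272 CPM with LPS and at 238, 279 and 210 CPM with LPS/siponimod. It was lower in each pair, but LPS replicate 3 lay below LPS/siponimod replicate 2. The means were 374 ± 89.6 and 242 ± 34.8 CPM, and the log2 FC was -0.63 with an interval from -1.17 to -0.084 (SE 0.23, quasi-likelihood adjusted p = 0.0809). Stat2 was not a DEG in this fit. It was one with the replicate block (log2 FC -0.61, adjusted p = 0.0368) and without LPS replicate 3 (log2 FC -0.81, adjusted p = 0.0215). Irf9, its DNA-binding partner in ISGF3, was at 75.0, 47.8 and 42.7 CPM with LPS and at 54.2, 48.6 and 44.9 CPM with LPS/siponimod. Its groups overlapped, and the log2 FC of -0.16 did not pass the test (SE 0.23, quasi-likelihood adjusted p = 0.617). All 22 listed ISGF3 target genes, by contrast, had a negative log2 FC, 14 of them being downregulated and none upregulated, with a median of -1.19. Over all genes tested, 11.7% were downregulated and 13.6% upregulated. With 1 library removed at a time, 5 to 17 of the 22 were downregulated, the 17 being without LPS replicate 3. Isg15, which encodes a ubiquitin-like protein, was at 535, 516 and 441 CPM with LPS and at 142, 200 and 155 CPM with LPS/siponimod, and its log2 FC was -1.59 (SE 0.18, quasi-likelihood adjusted p = 0.00655). For Ifi44l and Ifi44 the log2 FCs were -1.32 (adjusted p = 0.00655) and -1.23 (adjusted p = 0.00733).

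The other JAK and STAT genes moved in both directions. Of 7 relatives in the tables and tested (6 JAK and STAT genes, and Irf9 described above), 3 were downregulated and 1 upregulated, with a median log2 FC of -0.64. For all genes tested the shares were 11.7% and 13.6%. Stat3, the main STAT of the IL-6 and IL-10 families, was at 211, 238 and 238 CPM with LPS and at 121, 133 and 113 CPM with LPS/siponimod. The groups were far apart, and the log2 FC of -0.91 (SE 0.13, quasi-likelihood adjusted p = 0.00834) passed the test whichever of the 6 libraries was removed. Stat4, a mediator of IL-12 signalling, was at 684, 568 and 378 CPM with LPS against 212, 311 and 211 CPM with LPS/siponimod (log2 FC -1.15, SE 0.28, quasi-likelihood adjusted p = 0.0289). Jak3, the kinase of common gamma chain receptors, was at 83.3, 107 and 79.8 CPM with LPS and at 39.9, 62.4 and 49.8 CPM with LPS/siponimod (log2 FC -0.83, SE 0.21, quasi-likelihood adjusted p = 0.0309). Stat6, which acts downstream of IL-4 and IL-13, went the other way. It was at 245, 217 and 240 CPM with LPS and at 445, 379 and 361 CPM with LPS/siponimod, with a log2 FC of 0.76 (SE 0.14, quasi-likelihood adjusted p = 0.0157). Both Stat5 genes missed the threshold, with log2 FCs of -0.64 for Stat5a (adjusted p = 0.0712) and 0.40 for Stat5b (adjusted p = 0.292). Stat5a was called lower with the replicate block (adjusted p = 0.0292) and without LPS replicate 3 (log2 FC -0.78, adjusted p = 0.03). With 1 library removed at a time, Stat4 and Jak3 each kept the call in 2 of 6 fits (largest adjusted p 0.124 and 0.113) and Stat6 in 4 of 6 (0.0734).

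**Figure D2:**
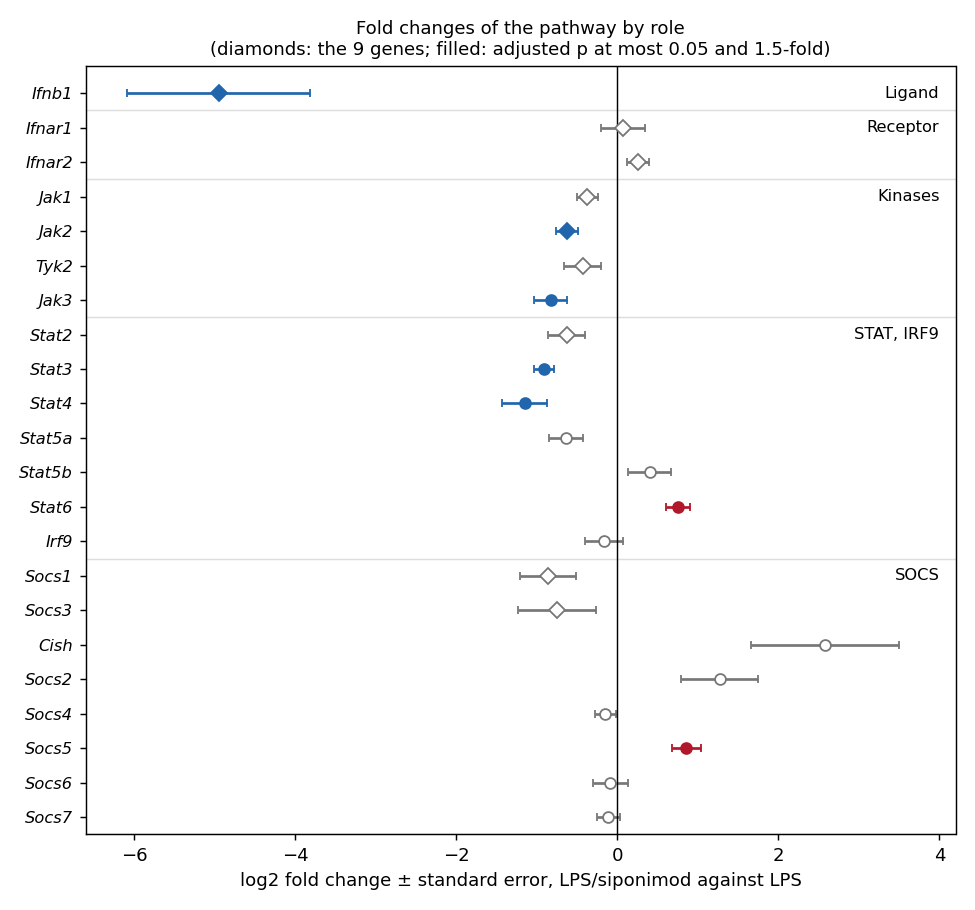
Log2 FC with its standard error (x axis, LPS/siponimod against LPS) of the 9 genes (diamonds) and of the other JAK, STAT, IRF9 and SOCS genes (circles), where filled symbols are DEGs. Ifnb1 is drawn from the fit without a filter, and its fitted value is not a bound. Jak2, Jak3, Stat3 and Stat4 were downregulated, Stat6 and Socs5 upregulated, and neither type I receptor chain was a DEG.

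Socs1 was counted at a low level, with 187, 146 and 273 counts under LPS and 116, 106 and 165 under LPS/siponimod. On the CPM scale these were 5.05, 3.79 and 7.35 against 2.50, 2.37 and 4.02. It was lower in each pair, by 1.00, 0.66 and 0.86 on the log2 scale, although the highest LPS/siponimod library exceeded the lowest LPS library. From 5.39 ± 1.80 to 2.97 ± 0.919 CPM (SD, n = 3 each), the log2 FC was -0.86 with an interval from -1.70 to -0.022 (SE 0.35, quasi-likelihood adjusted p = 0.108). Socs1 was downregulated in the fit with the replicate block (log2 FC -0.85, adjusted p = 0.0255). Without LPS replicate 3 its log2 FC was -0.57, at an adjusted p of 0.221 without the block.

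Socs3 had 6108, 4865 and 16897 counts under LPS and 6524, 5984 and 6942 under LPS/siponimod. In CPM these were 165, 126 and 455 against 140, 134 and 169. The 2 LPS libraries other than replicate 3 lay within the LPS/siponimod range or just below it, and replicate 3 stood far above. The means of 249 ± 180 and 148 ± 18.8 CPM gave a log2 FC of -0.75 with an interval from -1.92 to 0.42 (SE 0.48, quasi-likelihood adjusted p = 0.276). Without LPS replicate 3 the log2 FC was 0.027 (adjusted p = 0.919), so that the negative value rested on that library. The log2 ratio of Socs3 to Socs1 within a library was 5.02, 5.04 and 5.94 under LPS and 5.79, 5.79 and 5.38 under LPS/siponimod, with an exact permutation p of 0.4, where 3 against 3 libraries cannot go below 0.1. This ratio was higher with LPS/siponimod in pairs 1 and 2, by 0.77 and 0.75, and lower in pair 3, at -0.56.

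**Figure D3:**
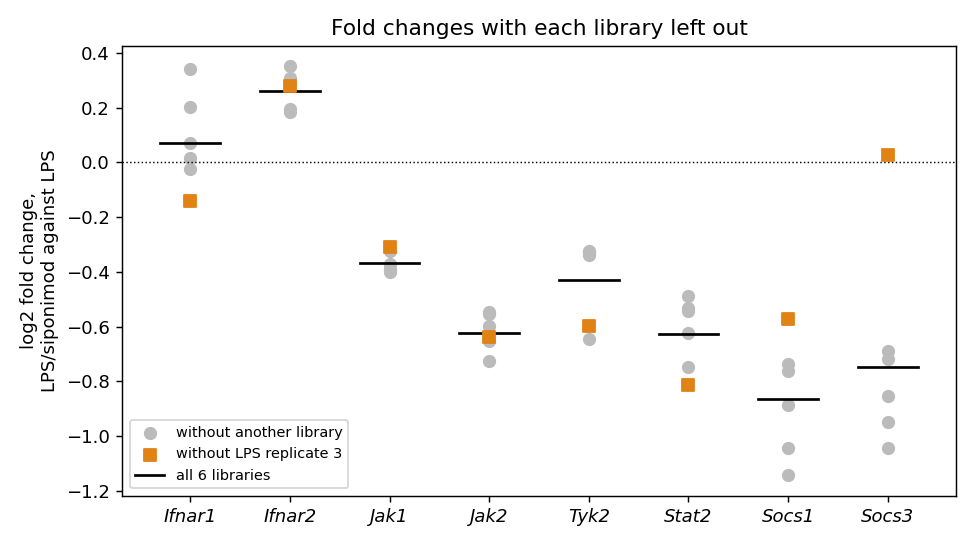
Log2 FC of the 8 tested genes (y axis) with all 6 libraries (black lines), without LPS replicate 3 (orange squares) and without each of the other libraries in turn (grey circles). Only Ifnar1 and Socs3 crossed 0 in these fits, Socs3 only without LPS replicate 3.

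Among the 6 other SOCS family genes none was downregulated and 1, Socs5, was upregulated, 3 having negative and 3 positive log2 FCs (median 0.39). Since 13.6% of all genes tested were upregulated, 1 of 6 is near the background. Socs5 was at 26.5, 35.4 and 40.3 CPM with LPS and at 62.2, 54.8 and 68.2 CPM with LPS/siponimod, without overlap (log2 FC 0.86, SE 0.18, quasi-likelihood adjusted p = 0.0211). In the fit with the replicate block Cish and Socs2 were upregulated too, where 17.7% of all genes were. Cish, a feedback inhibitor of STAT5 signalling, had 22, 11 and 104 counts under LPS and 435, 131 and 396 under LPS/siponimod. It was higher in each pair and did not overlap between the conditions, with LPS replicate 3 as the highest LPS library. Its log2 FC was 2.58 (SE 0.92, quasi-likelihood adjusted p = 0.0805), 2.94 with the block (adjusted p = 0.013) and 4.06 without LPS replicate 3 (adjusted p = 0.0176). Socs2, an inhibitor of growth hormone signalling, had 19, 18 and 42 counts under LPS and 67, 57 and 98 under LPS/siponimod. Its groups did not overlap, and its log2 FC was 1.27 (SE 0.48, quasi-likelihood adjusted p = 0.0933), 1.33 with the block (adjusted p = 0.024) and 1.80 without LPS replicate 3 (adjusted p = 0.0321). Socs4, Socs6 and Socs7 had log2 FCs between -0.15 and -0.086, with adjusted p-values of at least 0.414.

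**Figure D4:**
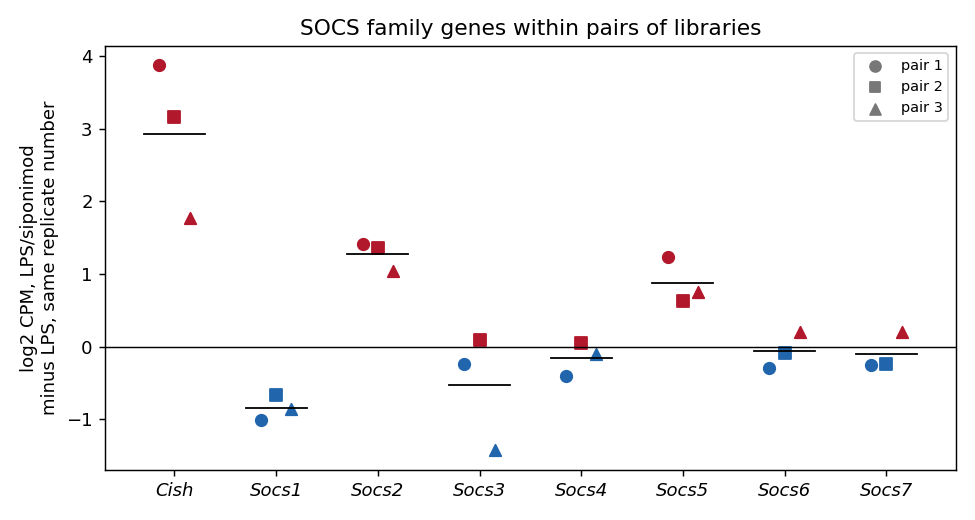
Differences of log2 CPM between same-numbered libraries (y axis, LPS/siponimod minus LPS, prior count 2) for the 8 SOCS family genes, with a black line for the mean of 3 pairs. Cish, Socs2 and Socs5 were above 0 and Socs1 below 0 in each pair, and Socs3 was furthest below 0 in pair 3.

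Of 12 other negative regulators of interferon or JAK-STAT signalling, 4 were downregulated and 3 upregulated, with a median log2 FC of -0.12. Shares over all genes tested were 11.7% and 13.6%. Usp18, an inhibitor that binds IFNAR2, was at 723, 757 and 904 CPM with LPS and at 321, 428 and 295 CPM with LPS/siponimod (log2 FC -1.19, SE 0.20, quasi-likelihood adjusted p = 0.0121). The phosphatase gene Ptpn1 was also lower, with a log2 FC of -1.01 (SE 0.22, adjusted p = 0.0211), as was Pias3, an inhibitor of STAT3, with -1.05 (SE 0.27, adjusted p = 0.0353). The fourth was the phosphatase gene Ptpn6 (log2 FC -1.44, adjusted p = 0.0449), which missed the threshold without LPS replicate 3 at a log2 FC of -1.49 (adjusted p = 0.0599). Upregulated were Pias2, with a log2 FC of 0.83 (adjusted p = 0.021), the phosphatase gene Ptpn2, with 0.59 (adjusted p = 0.0291), and the adaptor gene Sh2b3, with 0.64 (adjusted p = 0.0394).

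Upstream of the ligand, 9 of 14 tested genes for the induction of interferon beta from Toll-like receptor 4 had a negative log2 FC (median -0.37), 4 being downregulated and none upregulated. By comparison, 11.7% of all genes tested were downregulated and 13.6% upregulated. Ikbke was at 12.4, 14.4 and 7.64 CPM with LPS and at 4.05, 5.67 and 2.93 CPM with LPS/siponimod (log2 FC -1.44, SE 0.34, quasi-likelihood adjusted p = 0.0273). Tbk1, the related kinase gene, was at 123, 121 and 98.0 CPM with LPS and at 67.3, 84.8 and 67.0 CPM with LPS/siponimod (log2 FC -0.64, SE 0.16, quasi-likelihood adjusted p = 0.0295). Irf7, itself an interferon target whose product drives interferon genes, was at 3820, 2832 and 2545 CPM with LPS and at 1430, 1770 and 1065 CPM with LPS/siponimod (log2 FC -1.11, SE 0.27, quasi-likelihood adjusted p = 0.0304). None of these 3 overlapped between the conditions. Without overlap, 4 of the 14 genes lay lower and 1, Tlr4, higher, against 24.0% and 25.3% of all genes tested. Irf5 was the fourth (log2 FC -1.01, adjusted p = 0.0313, and -0.94 with an adjusted p of 0.0516 without LPS replicate 3). Irf3, the factor activated directly by TBK1, had a log2 FC of 0.031 (adjusted p = 0.868), and Tlr4 had one of 0.77 (adjusted p = 0.125). With the replicate block Ticam2 and Irf8 were called lower too, at adjusted p-values of 0.0406 and 0.0133, and Irf8 was also without LPS replicate 3 (log2 FC -2.23, adjusted p = 0.016). Traf6, a ubiquitin ligase gene, had a log2 FC of 0.55 with all libraries (adjusted p = 0.167) and was called higher without LPS replicate 3 (log2 FC 0.84, adjusted p = 0.0388).

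Socs3 and Stat3 also serve the gp130 and IL-10 cytokine families, of which 9 of 11 listed ligand and receptor genes were tested. Of these, 2 were downregulated and 2 upregulated, against 11.7% and 13.6% of all genes tested, and the median log2 FC was -0.72. Il6r, the IL-6 receptor chain, was at 110, 83.7 and 177 CPM with LPS and at 14.2, 40.1 and 21.2 CPM with LPS/siponimod (log2 FC -2.30, SE 0.46, quasi-likelihood adjusted p = 0.0183). Il10ra had a log2 FC of -1.73 (SE 0.28, adjusted p = 0.0107). In contrast Il6st, which encodes gp130 itself, was at 18.8, 21.3 and 43.6 CPM with LPS and at 69.5, 49.0 and 94.9 CPM with LPS/siponimod (log2 FC 1.35, SE 0.40, quasi-likelihood adjusted p = 0.0478), and the ligand gene Osm had a log2 FC of 1.43 (SE 0.26, adjusted p = 0.0141). The ligand gene Il6 shared with Socs3 the excess in LPS replicate 3, with 14.7, 6.10 and 144 CPM under LPS and 63.5, 35.5 and 83.9 CPM under LPS/siponimod. Its log2 FC was 0.15 with all libraries (quasi-likelihood adjusted p = 0.928) and 2.56 without LPS replicate 3 (adjusted p = 0.0242). Lif, at 1.51, 0.571 and 11.1 CPM with LPS and 13.5, 7.15 and 32.5 CPM with LPS/siponimod, had a log2 FC of 2.01 (adjusted p = 0.215), which was 2.69 with the replicate block (adjusted p = 0.013) and 4.10 without LPS replicate 3 (adjusted p = 0.0242). With the block Osmr and Il11ra1 were called lower too, at adjusted p-values of 0.0298 and 0.0356, and Osmr was also without replicate 3 of both conditions (adjusted p = 0.0334). Without LPS replicate 3, 4 genes of this group were upregulated and 2 downregulated, while over all genes 1941 were upregulated and 1772 downregulated.

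For each tested gene, the genes whose centred log2 CPM profiles over the 6 libraries were closest were listed, by the root mean square distance. Those of Socs3 were Ccl7 at 0.136, Msr1 at 0.147 and Kif20b at 0.181, which like Socs3 peaked in LPS replicate 3. Socs1 was closest to Hs2st1 (0.148), Psmb8 (0.155) and Itga5 (0.157), and Stat2 to Atad2b (0.0451), Dram2 (0.0509) and Ranbp9 (0.0635). After the unnamed locus nearest to it, Jak2 was closest to Slc25a28 (0.0593) and Anxa11 (0.0608). For Jak1 the closest was Cdkal1 (0.0237), for Tyk2 Mtg1 (0.0700), for Ifnar1 Rmnd5b (0.0361) and for Ifnar2 Ppp1r10 (0.0343). With 6 libraries and 11977 genes such neighbours describe these libraries only.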

How the data were processed

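Single-end reads of polyA-selected mRNA were trimmed and mapped to the rat genome in the CLC Genomics Workbench, and the authors deposited the unnormalized read counts of the genes, 1 table per library. bcl2fastq (version 2.20.0.422) is named in the submitters' processing notes. The handling of strand and of reads that match several genes is not given in the sources used here, so that values of overlapping genes are uncertain. A row without a name in 1 table, holding 0 counts, was left out.

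The comparison used edgeR (version 4.0.16) under R (version 4.3.3). The filter filterByExpr left 11977 of 23139 genes. TMM factors and the quasi-likelihood test with the condition as the only term were used, p-values being adjusted after Benjamini and Hochberg over all genes tested. DESeq2 (version 1.42.0), limma-voom (limma version 3.58.1), the likelihood ratio test, RLE factors, other filters, a replicate block and fits without each library were run as alternatives. Log2 CPM used a prior count of 2. Floors and limits cover counting error only.

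After centring on group means, same-numbered libraries correlated at 0.420, 0.545 and 0.611 and others at -0.534 to 0.0856. The numbers were therefore treated as pairs in the pair differences and the fits with a replicate block, on these values alone. The main fit did not use them. Centring makes the deviations within a group sum to 0, so that part of this contrast is forced.

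The 9 genes and the gene lists were chosen with earlier results of these data known. Named are the 9 genes, Irf9, their nearest genes, of each list up to 3 DEGs per direction with the smallest adjusted p, marker genes, and list genes at 3 counts or fewer throughout 1 group only. The latter gave, besides Ifnb1, Gfap, Lum, Syt1 (0, 1 and 10 counts under LPS, 0, 0 and 3 under LPS/siponimod) and Slc17a7 (2, 0 and 0 under LPS, 1, 1 and 4 under LPS/siponimod). The remaining genes were named after their values were seen. 1 planned ratio with Stat2 was not run because its other gene is not analysed here.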

Additional observations from a re-analysis of the deposited data

How the results depend on the processing

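Of 426 alternative values, 334 kept their direction and their side of the threshold or stayed within the stated range, 71 moved, 6 became stronger, 11 weaker and 4 reversed, and the cause was not tested. Stat2 was also called lower with DESeq2 (log2 FC -0.63), with the replicate block (-0.61) and with the block and no filter (-0.62), and Socs1 with the block (-0.85) and with the block and no filter (-0.86). The 8 genes tested with a filter, without Ifnb1, held 2 downregulated DEGs with DESeq2 and 3 with either block fit, while over all genes the downregulated DEGs rose from 1403 to 1924 with DESeq2, 1960 with the block and 2097 with the block and no filter. gp130 and IL-10 family genes held 4 downregulated with DESeq2 or the block and 5 with the block and no filter, and 1 upregulated without a filter. Of the other SOCS genes, 2 were upregulated with DESeq2 or the likelihood ratio test and 3 with either block fit. Without a filter, 1 negative regulator and 1 interferon receptor gene were upregulated.

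With each library left out, and with replicate 3 of both conditions left out (chosen after seeing the data), the log2 FC of Ifnar1 ranged from -0.14 to 0.34 (-0.0091 without replicate 3 of both conditions), that of Socs3 from -1.04 to 0.027 (reached without LPS replicate 3), that of Jak2 from -0.73 to -0.55 (-0.57 without replicate 3 of both conditions), that of Stat2 from -0.81 to -0.49 and that of Ifnb1, without a filter, from -5.33 to -4.08 (-5.07 and -5.33 without LPS replicates 1 and 2, -4.42, -5.27 and -5.31 without LPS/siponimod replicates 1, 2 and 3, and -4.46 without replicate 3 of both conditions). From 0 to 2 of these 8 genes were downregulated. Over all genes 182 to 1772 were downregulated and 469 to 1941 upregulated, against 1403 and 1633 with all libraries. Downregulated were 1 to 4 JAK-STAT relatives, 0 to 3 negative regulators, 0 to 4 genes of interferon beta induction, 0 to 3 gp130 and IL-10 family genes and 5 to 17 ISGF3 target genes. Upregulated were 0 to 1 JAK-STAT relatives, 0 to 3 other SOCS genes, 0 to 3 negative regulators, 1 to 2 interferon receptor genes, 0 to 1 genes of interferon beta induction and 0 to 4 gp130 and IL-10 family genes. Of the 6 fits without 1 library, the call held in 6 for Ifnlr1, in 3 for Socs5, in 1 for Ifngr1, and in 1 to 3 for each called negative regulator, 1 to 2 for each called gene of interferon beta induction and 2 to 5 for each called gp130 and IL-10 family gene. With 2 libraries left in a group, its spread is taken from both groups and all genes. Calls among the 9 genes that rest on LPS replicate 3 or on the block are given beside the values, and no other call of the 9 changed with the block. Depth limits Ifnb1 most, which had 2 reads in all with LPS/siponimod.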
